A study of Homo sapiens with 4 samples.

Results

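The genes described here carried more than 20 binding clusters of the helicase DHX36 in its catalytically dead form. DHX36 is a helicase of the DEAH-box family that unwinds G-quadruplexes, four-stranded structures that guanine-rich RNA can fold into. In its usual place, the cytoplasm, it contacts mature mRNAs. PAR-CLIP records such contacts in living cells. The nucleoside 4-thiouridine is built into RNA, ultraviolet light crosslinks it to a bound protein, and the crosslinked base is read as a T-to-C change. Overlapping reads with such changes are called as a cluster, so a gene with many clusters was contacted at many separate places.

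PAR-CLIP was run on 2 stable T-REx Flp-In HEK293 lines, a line of human embryonic kidney cells. One line expressed FH-DHX36, isoform 2 of DHX36 with an N-terminal HA and FLAG tag. The other expressed FH-DHX36-E335A, the tagged isoform 1 with a glutamate to alanine change that removes the catalytic activity. Both transgenes were switched on with 500 ng/ml tetracycline for 15 h, both lines were labelled with 4-thiouridine and irradiated at 365 nm for 5 min, and the protein was collected with an antibody to FLAG. Each line gave 2 samples, 4 in all. The isoform and the mutation differ together between the lines, so their parts in any difference cannot be told apart. The proteins came from an inducible transgene, and no deletion of the endogenous gene is named for either line. The deposited table holds 1 value per gene and line, without replicate columns, so no test across samples could be made. The intervals below are 95% Wilson intervals for shares and 95% order-statistic intervals for medians. They cover counting or gene-to-gene spread only.

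The genes were chosen by their FH-DHX36-E335A values. Of the 26490 genes in the table, 9131 held an FH-DHX36-E335A cluster. More than 20 clusters were listed for 402 of them, and 21 with at least 95% of their crosslinked reads in the 3'UTR were left out. The remaining 381, called multi-cluster genes here, make up 4.17% of those 9131. Among them lay 10590 of the 60208 clusters (17.6%) of that PAR-CLIP and 1828053 of its 8752127 crosslinked reads (20.9%). At the lower edge of the rule, 49 genes had 21 clusters, with a median of 2441 reads, while 44 genes just outside had 20 clusters, with a median of 2214 reads. At the other edge, SUB1 was kept with 94.9% of its 1914 reads in the 3'UTR, followed by HECA at 94.6%, RHOU at 94.2%, VMA21 at 94.1%, HIPK2 at 93.7% and TMEM123 at 93.6%. POU3F2 was left out at 95.1% of 10990 reads, as were RBFOX2 at 95.7%, KCTD20 at 95.8%, PTBP3 at 95.9% and both MAPK1IP1L and PRPF38A at 96.1%. The FH-DHX36-E335A PAR-CLIP was 4.05 times as deep in reads as the FH-DHX36 PAR-CLIP, which held 2160413 reads in 16742 clusters. Of the markers of HEK293 cells checked in the table, VIM had 14 FH-DHX36-E335A clusters and NEFL had 21, while NEFM, PAX2 and LHX1 had none. The markers of liver, red cells, T cells and heart (ALB, HBB, CD3E and MYH7) had none in either PAR-CLIP.

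The 2 kinds of sequence that the results below turn on are shown first. A G-run match is 4 runs of 2 guanines with 1 to 7 bases between neighbouring runs, a pattern that can fold into a G-quadruplex with 2 layers of guanines. It was searched on the sense strand of 1 canonical transcript per gene, GENCODE release 44 on GRCh37, the build that hg19 shares. The pentamer AUUUA, the core of AU-rich elements that bind decay factors, was searched on the sense strand of the 3'UTR. The genes shown are those with the highest and the lowest ratio of scaled FH-DHX36-E335A to FH-DHX36 reads, described further on. For each, the match with the most guanines is printed 5' to 3' in DNA letters, with the guanine runs in capitals. The table holds no cluster positions, so these are matches and not bound sites. RBM12B, which had the lowest ratio, is given by its number of matches only.

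NR2F2, 5'UTR, chr15:96874421-96874443, plus strand: GGcccgcaGGgaacGGcgagcGG
ZNF367, 5'UTR, chr9:99180350-99180375, minus strand: GGgcagagcGGtgctcaGGagtgcGG
MED13L, CDS, chr12:116714894-116714917, minus strand: GGgtGGcgaacggGGcgagcctGG
CDC5L, CDS, chr6:44355581-44355596, plus strand: GGgGGgcgtatGGaGG
ANKRD50, CDS, chr4:125631414-125631435, minus strand: GGgcctGGcagtGGcaagacGG
CNOT1, 5'UTR, chr16:58663677-58663700, minus strand: GGggtcgaGGagagccGGagtcGG
HNRNPA2B1, CDS, chr7:26235496-26235515, minus strand: GGacgtGGatttGGggatGG
ATP2A2, 5'UTR, chr12:110719126-110719150, plus strand: GGgcgtgcGGcgctgaGGgacccGG
MBD3, 5'UTR, chr19:1592816-1592837, minus strand: GGggctGGcgagcgcGGggaGG
AKT2, 3'UTR, chr19:40738031-40738055, minus strand: GGtgctgtGGggctgaGGggtatGG
PRRC2B, CDS, chr9:134351476-134351504, plus strand: GGagtccctGGgcctgtgGGgacccgaGG

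The first 6 of these genes had the highest ratios and the last 5 had low ones, and a match was found in every one of the 11. This is the background, since 99.5% of multi-cluster transcripts and 97.1% of those of the other genes with an FH-DHX36-E335A cluster hold one. CDC5L held 6 matches that do not overlap, ZNF367 held 8, ANKRD50 and CNOT1 each held 11, NR2F2 held 17 and MED13L held 23. Among the 6 genes with the lowest ratios, RBM12B and HNRNPA2B1 each held 15, ATP2A2 held 24, MBD3 and AKT2 each held 37 and PRRC2B held 48. The numbers of the 2 sets overlapped, at 6 to 23 and 15 to 48. The AUUUA pentamer is shown for the genes of the same sets whose 3'UTR has at least 2 copies within 30 bases, as the first such 30 bases with the most copies, the copies being in capitals with T for U.

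ZNF367, 3'UTR, chr9:99148450-99148479, minus strand: gaaattatcacaactATTTAgaaacATTTA
CDC5L, 3'UTR, chr6:44417531-44417560, plus strand: gATTTActaatcttttATTTAggaaATTTA
ANKRD50, 3'UTR, chr4:125586589-125586618, minus strand: actttgaattattgaaattgtATTTATTTA
HNRNPA2B1, 3'UTR, chr7:26231485-26231514, minus strand: gttaagaagctgttgtacATTTAtgATTTA
ATP2A2, 3'UTR, chr12:110784988-110785017, plus strand: cttcacatagtttttaaggttATTTATTTA
PRRC2B, 3'UTR, chr9:134373603-134373632, plus strand: aaaaaaacaaaaaacactagaATTTATTTA

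These stretches came from genes with high and with low ratios alike. CDC5L was the only one of the 11 genes with 3 copies in 30 bases.

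The multi-cluster genes had from 21 to 56 FH-DHX36-E335A clusters, with a median of 26. At least 30 clusters were listed for 112 genes, at least 40 for 32 and at least 50 for 9. NUFIP2 at chr17:27582857-27621166, which codes for a partner of the fragile X protein FMRP, had the most, 56, of which 44 lay in the 3'UTR and 10 in the CDS. SPEN at chr1:16162590-16266951, a large transcriptional repressor, had 54, of which 35 lay in the CDS. The 54 clusters of TROVE2 at chr1:193028584-193060907, which codes for the Ro60 protein that binds Y RNAs, fell mostly in introns, with 28 there, 9 in the 3'UTR and 11 in the CDS. PANK3 at chr5:167975500-168006373, a pantothenate kinase of coenzyme A synthesis, had 44 of its 54 clusters in the 3'UTR. ERC1 at chr12:1099675-1605099, a scaffold protein of the cell cortex, had 48 of its 53 clusters in introns. SON at chr21:34915344-34949787, a splicing cofactor, had 32 of 52 in the CDS, and KMT2D at chr12:49412758-49454577, a histone H3 lysine 4 methyltransferase, had 39 of 50 there. C16orf72 at chr16:9185501-9215492, now named HAPSTR1, had 33 of 50 in introns, and PURB at chr7:44915898-44925129, a protein that binds purine-rich nucleic acid, had 42 of 49 in the 3'UTR. The genes with the most clusters thus fell into 3 kinds by where those clusters lay, the 3'UTR, the CDS or the introns.

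**Figure D1:**
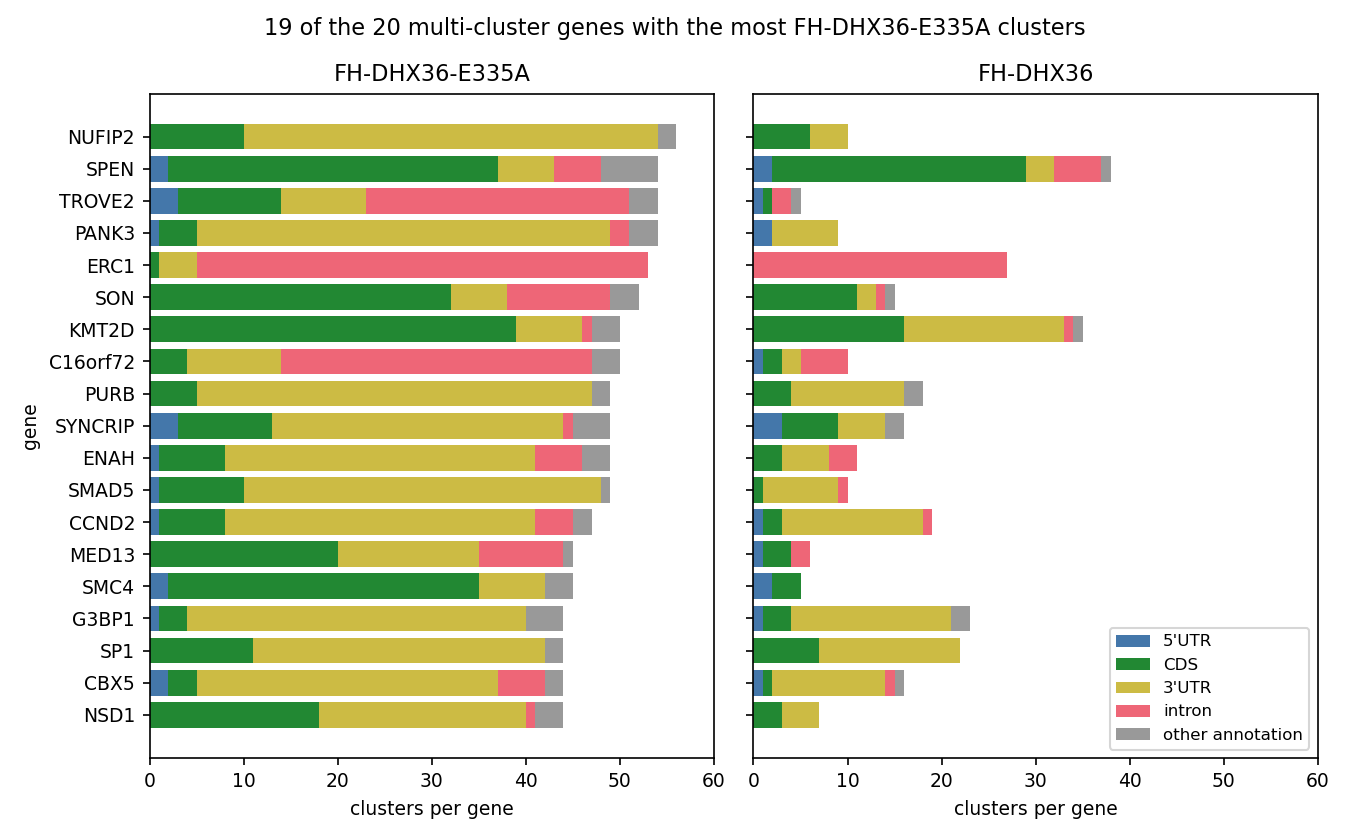
Clusters per gene (horizontal axis) of 19 of the 20 multi-cluster genes with the most FH-DHX36-E335A clusters, in the FH-DHX36-E335A PAR-CLIP on the left and the FH-DHX36 PAR-CLIP on the right, each bar being 1 authors' value per gene split by annotation. NUFIP2 has 56 clusters on the left and 10 on the right, SPEN has 54 and 38, and ERC1 stays intronic in both with 48 and 27 intronic clusters.

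The FH-DHX36 columns of the same rows were not used in choosing the genes. Of the 381 genes, 367 (96.3%, interval 93.9 to 97.8%) also held an FH-DHX36 cluster, against 62.1% of all 9131 that held one with FH-DHX36-E335A. By number of FH-DHX36-E335A clusters, the share was 89.4% over the 1336 genes with 11 to 20 clusters, 77.7% over the 2131 genes with 6 to 10 and 46.2% over the 5262 genes with 1 to 5. The multi-cluster genes held 2669 FH-DHX36 clusters (15.9% of that PAR-CLIP) and 367254 reads (17.0%). The number per gene ran from 0 to 38 with a median of 5, against a median of 1 over the other genes with an FH-DHX36-E335A cluster. At least 5 FH-DHX36 clusters were listed for 220 genes, at least 10 for 86 and at least 20 for 21. How many other genes reach these numbers was not counted, but genes with 11 to 20 FH-DHX36-E335A clusters had a median of 3. Among the 100 genes of the table with the most FH-DHX36 clusters, 52 were multi-cluster genes, against 367 among all 5930 with an FH-DHX36 cluster. Across the 381 genes, the numbers of clusters in the 2 PAR-CLIPs had a rank correlation of 0.27 and their reads one of 0.78. These are descriptions over genes, which share the same libraries, and the range of FH-DHX36-E335A clusters was cut by the rule.

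The most FH-DHX36 clusters were in KLHL15 and SPEN, with 38 each. KLHL15 at chrX:24001833-24045303, an adaptor of the cullin 3 ubiquitin ligase, had 24 of them in the 3'UTR and was one of 3 genes with more FH-DHX36 than FH-DHX36-E335A clusters, 38 against 35. The others were LMNB2 at chr19:2427636-2456957, the gene of lamin B2, with 31 against 24, and MBD3 at chr19:1573595-1592864, a subunit of the NuRD chromatin complex, with 29 against 25. SPEN had 27 of its 38 FH-DHX36 clusters in the CDS. KMT2D had 35, of which 17 lay in the 3'UTR and 16 in the CDS, whereas 39 of its 50 FH-DHX36-E335A clusters lay in the CDS. By reads, the 3'UTR of KMT2D led in both, with 13950 of 15973 FH-DHX36-E335A and 3755 of 4635 FH-DHX36 reads. NUCKS1, a nuclear DNA-binding protein, had 29, with 24 in the 3'UTR. ERC1 had 27, all in introns.

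The DHX36 gene itself, at chr3:153990335-154042276, had 27 clusters in each PAR-CLIP, the only multi-cluster gene with equal numbers. Of the FH-DHX36-E335A clusters 19 lay in the CDS, and of the FH-DHX36 clusters 23. Its reads numbered 30909 and 19208. Both lines carry a DHX36 transgene, and reads from its mRNA cannot be told apart from those of the endogenous mRNA in this table. Shares of clusters by region with and without this gene differed by less than their intervals. Shares of reads moved further. Without it, the CDS share fell from 28.4% to 25.4% of the FH-DHX36 reads and from 17.7% to 16.9% of those with FH-DHX36-E335A. The 3'UTR share of the FH-DHX36 reads became 38.4% in place of 36.35%.

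**Figure D2:**
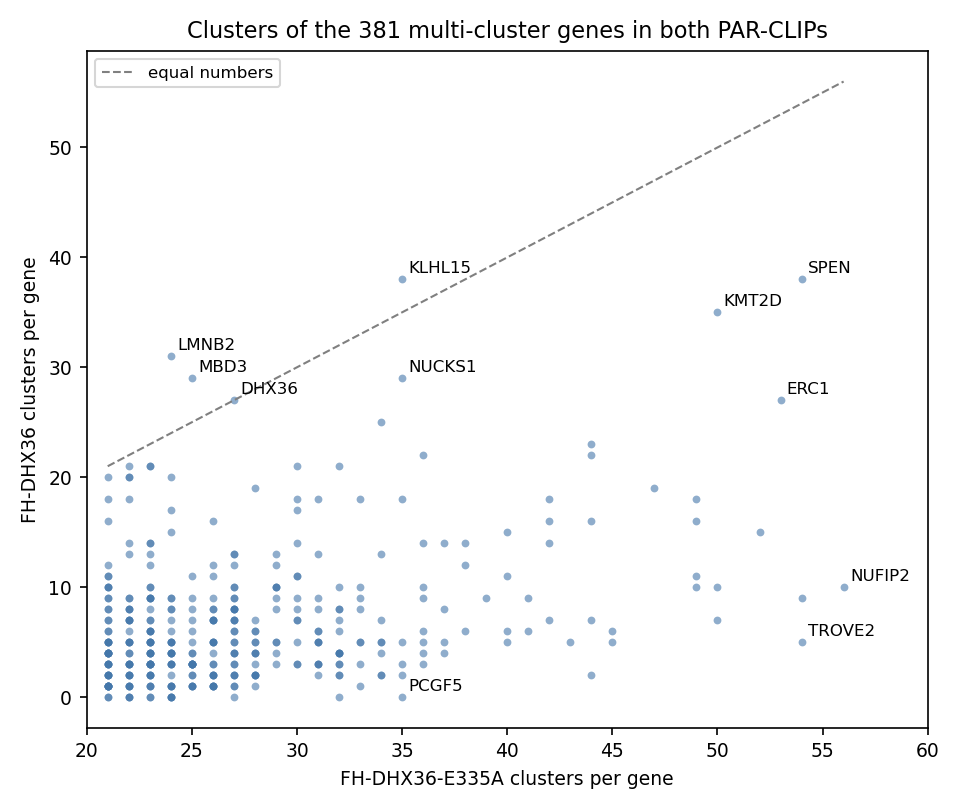
FH-DHX36 clusters per gene (vertical axis) against FH-DHX36-E335A clusters per gene (horizontal axis) for the 381 multi-cluster genes, 1 point per gene (darker where genes overlap), with a dashed line of equal numbers. KLHL15, LMNB2 and MBD3 lie above the line, DHX36 lies on it, and all other genes lie below.

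By reads, ERC1 led with 62956 FH-DHX36-E335A and 5437 FH-DHX36 reads. G3BP1, the core protein of stress granules, followed with 34036 and 8174 reads, with 36 of its 44 FH-DHX36-E335A clusters in the 3'UTR. Next after DHX36 came ZNF711, a zinc finger transcription factor, with 27897 and 2862 reads. HNRNPA2B1, an RNA-binding protein of splicing and RNA transport, had 26851 and 30421 reads, more in the shallower PAR-CLIP. RAD23B of nucleotide excision repair had 25379 and 4031 reads, KLHL15 had 23916 and 4438, NUCKS1 had 21383 and 4276, the chromatin protein DEK had 18654 and 1751, and the endoplasmic reticulum chaperone CANX had 16056 and 2248. These 10 genes held 15.8% of the FH-DHX36-E335A reads and 22.6% of the FH-DHX36 reads of the multi-cluster genes. The median gene had 3407 FH-DHX36-E335A reads (interval 2952 to 3763, range 734 to 62956) and 420 FH-DHX36 reads (interval 339 to 485, range 0 to 30421).

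No FH-DHX36 cluster was listed for 14 of the 381 genes. PCGF5, a subunit of a Polycomb repressive complex, had the most FH-DHX36-E335A clusters of these, 35 with 2166 reads, followed by ELK4, a transcription factor of the ETS family, with 32 and 1872 reads. The others were TOR1AIP2, LPGAT1, PHF3, SIX4, YOD1, TTL, SCAF11, PHF10, RAD21, APPL1, TWISTNB and SKIL, with 21 to 27 clusters and 734 to 1726 reads. Their median of 1232.5 reads lay below the 3474 of the other 367, and their median recovered RNA abundance was 3.64 against 6.80. Genes with 1 FH-DHX36 cluster had a median of 45 reads and as few as 6, so a gene listed at 0 may still have been contacted below what was called, and no ratio is given for it.

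Over all 381 genes, 5590 of the 10590 FH-DHX36-E335A clusters (52.8%, interval 51.8 to 53.7%) lay in the 3'UTR. The rule left out genes by their 3'UTR reads, so nothing is read from this share. The CDS held 3040 (28.7%, interval 27.9 to 29.6%), introns 670 (6.33%), the 5'UTR 339 (3.20%, interval 2.88 to 3.55%) and other annotation, which is the clusters in none of these 4 categories, 951 (8.98%). Of the 2669 FH-DHX36 clusters, 1226 (45.9%, interval 44.1 to 47.8%) lay in the 3'UTR, 817 (30.6%, interval 28.9 to 32.4%) in the CDS, 239 (8.95%) in introns, 195 (7.31%, interval 6.38 to 8.36%) in the 5'UTR and 192 (7.19%) in other annotation. The share in the 5'UTR was 7.31% with FH-DHX36 against 3.20% with FH-DHX36-E335A. Over the other 8750 genes with an FH-DHX36-E335A cluster the same shares were 8.30% and 4.31%. Clusters of a gene share their source and the spread between samples is unknown, so the difference between the lines was not tested. For each 100 FH-DHX36-E335A clusters there were 57.5 FH-DHX36 clusters in the 5'UTR, 35.7 in introns, 21.9 in the 3'UTR and 26.9 in the CDS.

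Clusters were also set against region lengths. Over the 379 genes with a coding transcript, the density of FH-DHX36-E335A clusters was 3.12 per kb of 5'UTR, 3.49 per kb of CDS and 3.64 per kb of 3'UTR. These were 0.874, 0.978 and 1.02 times what the lengths alone would give among exonic clusters. Over the other genes with an FH-DHX36-E335A cluster the same values were 1.09, 0.828 and 1.14. The rule acted on the 3'UTR reads, so nothing is read from this difference. Clusters in introns and other annotation were not counted here, while the region lengths of every one of these genes were. FH-DHX36 clusters were denser in the 5'UTR, at 1.79 per kb against 0.791 in the 3'UTR and 0.938 in the CDS, or 2.02, 0.893 and 1.06 times the value from length. The other genes with an FH-DHX36-E335A cluster had 2.15 times the value from length in the 5'UTR with FH-DHX36. Within the multi-cluster genes, the number of FH-DHX36-E335A clusters in the CDS had a rank correlation of 0.71 with CDS length and the number in the 3'UTR one of 0.62 with 3'UTR length (379 genes). The same values were 0.13 and 0.40 over the other genes, and 0.31 and 0.19 for FH-DHX36 clusters of the multi-cluster genes. The genes were chosen by the sum of such clusters, so the FH-DHX36-E335A values are tied to the rule.

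**Figure D3:**
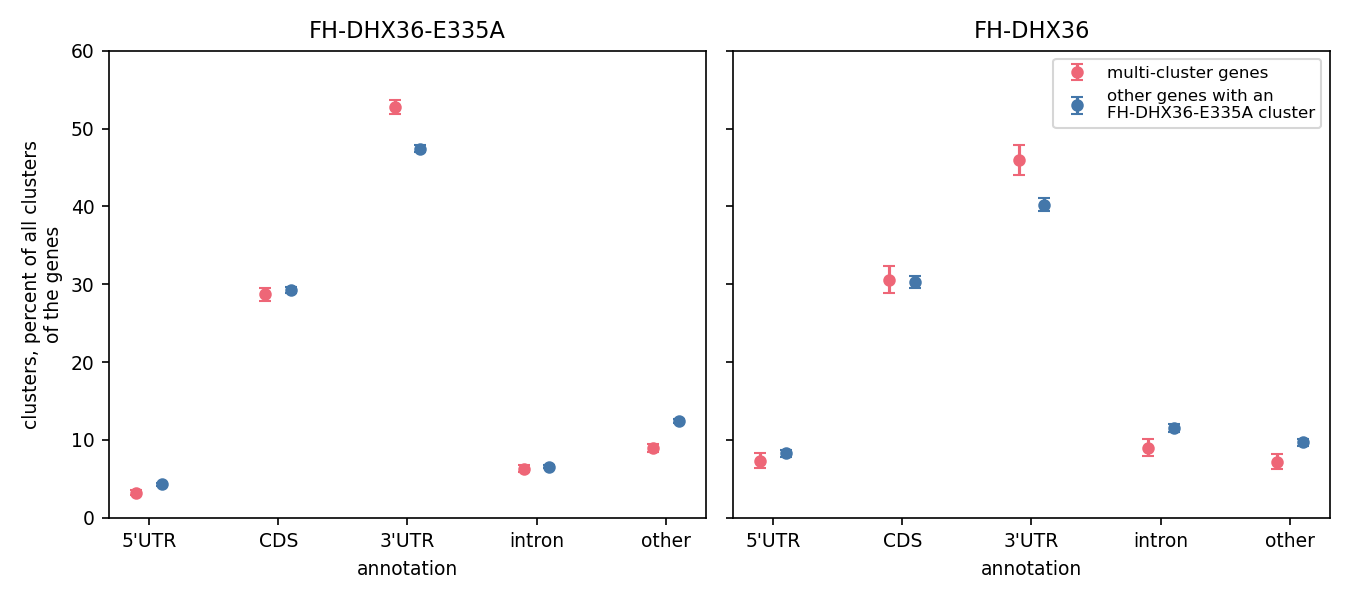
Share of clusters in each annotation (vertical axis, percent of all clusters of the genes) for the 381 multi-cluster genes and the 8750 other genes with an FH-DHX36-E335A cluster, with 95% Wilson intervals that cover counting error only. The 5'UTR share of the multi-cluster genes is 7.31% with FH-DHX36 against 3.20% with FH-DHX36-E335A.

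Reads weighted the regions differently from clusters. The CDS share of the multi-cluster genes was 17.7% by FH-DHX36-E335A reads against 28.7% by clusters, and 28.4% by FH-DHX36 reads. Over the other genes with an FH-DHX36-E335A cluster the same values were 16.7%, 29.2% and 28.4%, so this is not particular to the multi-cluster genes. In the multi-cluster genes, a CDS cluster of FH-DHX36-E335A held 106 reads on average and a 3'UTR cluster 185. The separately called FH-DHX36 clusters held 128 reads on average in the CDS, against 109 in the 3'UTR. Without the DHX36 gene the CDS value was 100.3 for the FH-DHX36-E335A PAR-CLIP and 112 for the other, so most of the distance between CDS and 3'UTR in the FH-DHX36 PAR-CLIP came from that gene. Over the other genes, CDS and 3'UTR clusters held 79.9 and 154 reads with FH-DHX36-E335A and 121 and 125 with FH-DHX36.

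A leading annotation, the one with most of a gene's clusters, could be named for most genes. With FH-DHX36-E335A it was the 3'UTR in 258 genes, the CDS in 81, introns in 12, other annotation in 10 and the 5'UTR in 2, with ties in 18. Clusters lay in all of 5'UTR, CDS and 3'UTR in 189 genes. In 188 genes with at least 5 FH-DHX36 clusters and no tie, the leading annotation was the same in both PAR-CLIPs in 155. The most frequent change, in 16 genes, was from a 3'UTR lead with FH-DHX36-E335A to a CDS lead with FH-DHX36. These 16 included NUFIP2, SYNCRIP, HNRNPU and the transcription factors SOX4 and YY1. NUFIP2 had 44 of 56 clusters in the 3'UTR with FH-DHX36-E335A and 6 of 10 in the CDS with FH-DHX36. The reverse change, from a CDS lead to a 3'UTR lead, was found in 6 genes, among them KMT2D and XPO7. Since far more genes had a 3'UTR lead to begin with, no direction is read from these numbers.

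The genes with the highest share in each annotation were as follows. By 5'UTR share, C6orf62 led with 13 of 31 FH-DHX36-E335A clusters, and all 9 of its FH-DHX36 clusters lay there. GGPS1, which makes geranylgeranyl diphosphate, had 8 of 22 in the 5'UTR, SKIL, a repressor of SMAD signalling, had 7 of 21, and PROSER1 had 7 of 26. By CDS share, the kinetochore protein CENPF had 22 of 25, the nucleoporin NUP205 had 18 of 21, fatty acid synthase (FASN) had 28 of 33 and the nuclear exporter XPO1 had 26 of 32. By 3'UTR share, the kinase HIPK2 had 20 of 21, ARPP19 and YOD1 each had 22, of 24, and VMA21 had 28 of 31. By intron share, PHF10 had 16 of 22 and AKIRIN2 had 18 of 26, after ERC1 and beside C16orf72. All 27 clusters of CASP8AP2, all 22 of the nuclear noncoding RNA MALAT1 and all 21 of the neurofilament gene NEFL lay in other annotation, as did 20 of 27 in UCK2. MALAT1 is the only one of these without a coding sequence, and it had 20 FH-DHX36 clusters.

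Multi-cluster genes were long and rich in A and U. The median canonical transcript was 5896.5 bases (interval 5514 to 6183, 380 genes) against 3447.5 over the other genes with an FH-DHX36-E335A cluster. The median 3'UTR was 3509 against 1468 bases, the CDS 1668 against 1379 and the 5'UTR 234 against 140. The median density was 4.74 clusters per kb of transcript. It was highest in SYNCRIP, an hnRNP-like RNA-binding protein, at 17.8, then in the mitochondrial ribosomal protein MRPS30 at 13.96, AKIRIN2 at 13.7 and C6orf62 at 12.6. It was lowest in TNRC6B, the microRNA effector, at 1.15 per kb, then in NCKAP1 at 1.18, PHF3 at 1.28 and RAB21 at 1.35. The median GC content was 40.7% (interval 40.3 to 41.4%) against 47.0%, and the median share of U was 29.6% against 25.8%. The crosslinked base is a uridine analogue, so uridine content bears on what can be crosslinked, and its part was not tested. The median recovered RNA abundance, on the scale of the authors' RNA-seq, was 6.73 (interval 5.94 to 7.70) against 5.81. This abundance was 8.12, 8.11 and 4.52 over genes with 11 to 20, 6 to 10 and 1 to 5 clusters. In the same order, the median length was 4135, 3455 and 3206 bases and the median GC content 43.2%, 46.1% and 49.0%. The 21 genes left out for their 3'UTR reads had medians of 6466 bases and 44.5%. Length and base composition are thus not particular to the multi-cluster genes.

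G-run matches were less dense in the multi-cluster genes than in the other genes, at a median of 1.56 per kb of transcript (interval 1.39 to 1.71) against 2.24. In 3'UTRs the values were 0.738 against 1.14 per kb and in the CDS 1.40 against 2.23, whereas in the 5'UTR they were 8.49 against 5.85. Since their transcripts are longer, the number per transcript was alike, with a median of 9 against 8. The AUUUA pentamer was denser, at a median of 2.77 per kb of 3'UTR (interval 2.63 to 2.99) against 1.92, and its median number per 3'UTR was 10 against 3. In windows of equal length, the first 1000 bases of 3'UTRs at least that long, a G-run match was present in 51.8% of 353 multi-cluster genes, in 64.0% of 5409 other genes and in 65.5% of all 10073 annotated protein-coding genes. AUUUA was present in 87.0%, 77.7% and 74.9%. Genes with 11 to 20 clusters were close to the multi-cluster genes, with a G-run match in 56.8% and AUUUA in 85.1% of 1067, and genes with 1 to 5 clusters stood at 67.0% and 74.3% of 2934. Over the 21 genes left out for their 3'UTR reads the shares were 61.9% and 66.7%. Apart from these 21, the shares thus graded with the number of clusters and are not particular to the multi-cluster genes. The 21 also had more than 20 clusters and departed from this order, with wide intervals of 40.9 to 79.2% and 45.4 to 82.8%. Longer guanine runs also count, and AUUUA can lie in a loop of a G-run match, so the 2 motifs can overlap. With runs of at least 3 guanines, 31.1% of multi-cluster transcripts held a match against 25.8%, while over all bases the density was 0.0682 against 0.0955 per kb, so the direction of the G-run comparison depends on whether length is taken into account.

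To set the 2 PAR-CLIPs beside each other, reads were scaled to 1000000 reads of each PAR-CLIP. The ratio of FH-DHX36-E335A to FH-DHX36 had a median of 2.00 (interval 1.82 to 2.29) over the 367 genes with a cluster in both and of 1.09 (0.12 on the log2 scale) over all 5669 such genes of the table. At least 2-fold higher values with FH-DHX36-E335A were found in 184 of the 367 (50.1%), against 28.6% of all 5669. At least 2-fold lower values were found in 16 (4.36%), against 24.8%. The genes were selected on the numerator of this ratio, so nothing is read from its level, and with at least 100 FH-DHX36 reads the median was 1.73 over 317 genes. The same medians were 1.75 over genes with 11 to 20 clusters and 0.670 over those with 1 to 5.

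The highest ratio belonged to NR2F2, an orphan nuclear receptor, with 1745 FH-DHX36-E335A reads and 11 FH-DHX36 reads, a ratio of 39.2. ZNF367 followed with 4521 and 45 reads, then MED13L of the Mediator kinase module with 2446 and 30, the spliceosomal protein CDC5L with 1687 and 23, ANKRD50 with 1293 and 18, and CNOT1, the scaffold of the CCR4-NOT deadenylase, with 1127 and 16. Each of these 6 had a single FH-DHX36 cluster, so the ratios rest on few reads. The lowest ratios rested on more. RBM12B had 5294 and 6396 reads, a ratio of 0.204, and HNRNPA2B1 had 0.218. ATP2A2, the calcium pump of the endoplasmic reticulum, had 3966 and 4323 reads. MBD3 had 7902 and 8220, the kinase AKT2 had 2620 and 2603 and PRRC2B had 5469 and 5006. These 6 genes had from 9 to 29 FH-DHX36 clusters.

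Within the multi-cluster genes the ratio varied with base composition. In the 122 genes with the lowest GC content (33.1 to 39.0%) the median ratio was 2.89, in the 122 genes between it was 2.21 and in the 122 with the highest GC content (43.0 to 65.3%) it was 1.33. The median number of FH-DHX36 clusters was 5, 5 and 8 in the same order, and the median number of FH-DHX36-E335A clusters 27, 25 and 25. The rank correlation of the log2 ratio was -0.36 with GC content, -0.38 with G-run matches per kb, 0.32 with the share of U and 0.27 with AUUUA per kb of 3'UTR. Over the other genes the values were -0.36, -0.30, 0.35 and 0.22, so the same order was found outside the multi-cluster genes. GC content, G runs and U content move together across transcripts, and their parts were not tested. MBD3, LMNB2, AKT2 and FASN, whose transcripts had 58.0 to 65.3% GC, had ratios of 0.237, 0.328, 0.248 and 0.347. HNRNPA2B1, RBM12B and DHX36 also had low ratios, with 38.1 to 38.4% GC, and depart from this order. The reads of DHX36 include any from its transgene, so nothing on base composition is read from its ratio.

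**Figure D4:**
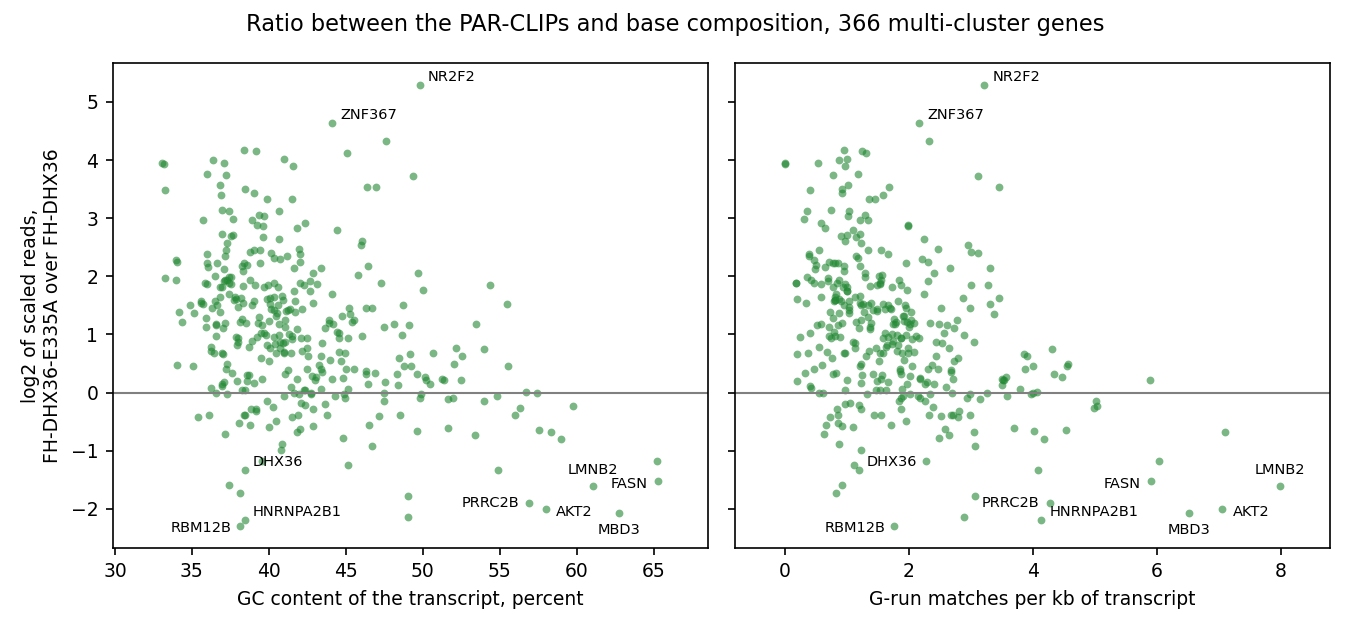
Log2 ratio of scaled reads, FH-DHX36-E335A over FH-DHX36 (vertical axis), against GC content of the canonical transcript in percent (left) and G-run matches per kb of transcript (right) for 366 multi-cluster genes, 1 point per gene. The rank correlations are -0.36 and -0.38, and NR2F2 has the highest value at 5.29.

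The multi-cluster genes were counted in 41 gene lists. The lists were written with earlier results known and the counts rest on the rule, so each share is a description beside the 4.17% over all 9131. Regulators that bind 3'UTRs had the highest share, 9 of 29 (31.0%). Among them were G3BP1 with 44 FH-DHX36-E335A clusters, QKI with 34, IGF2BP1 and YTHDF3 with 32 each, LIN28B, PUM2 and MSI2 with 27 each and CAPRIN1 with 23. In G3BP1, QKI, IGF2BP1, YTHDF3, LIN28B and MSI2 most of these lay in the 3'UTR of the regulator's own mRNA. IGF2BP1, which stabilizes its target mRNAs, had 21 clusters with FH-DHX36 (log2 ratio -1.79), whereas CAPRIN1, a partner of G3BP1, had 2 (3.33).

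Among proteins of splicing and RNA packaging, 5 of 20 hnRNP genes (25%) and 3 of 14 SR genes (21.4%) were multi-cluster genes. HNRNPU, HNRNPR, HNRNPH1, HNRNPUL1 and HNRNPA2B1 had 35, 24, 23, 22 and 21 FH-DHX36-E335A clusters and 18, 9, 14, 18 and 20 FH-DHX36 clusters. SRRM2, SRSF11 and TRA2B had 30, 27 and 21 against 18, 12 and 10. In the readout that the rule did not use, a median of 9 FH-DHX36 clusters was listed over the 20 hnRNP genes with an FH-DHX36-E335A cluster and of 6.5 over the 14 SR genes, against 1 over the other genes. Their median lengths, 3396.5 and 3662 bases, were near the 3447.5 of the other genes. RNA abundance was not compared for these lists, and neither its part nor that of length was tested. The 29 regulators that bind 3'UTRs had a median of 3 FH-DHX36 clusters and a longer median length, 4634 bases. Of the RNA helicases of the DDX and DHX families, 5 of 39 (12.8%) qualified. Besides DHX36 they were DDX17 with 30 clusters, DDX21 and DDX3X with 29 each and DHX15 with 24.

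Nuclear transport gave 10 of 50 genes (20.0%). The importins KPNB1, KPNA4, KPNA6, TNPO1 and IPO5 had 23 to 36 clusters, the exportins XPO1 and XPO7 had 32 and 24, and the nucleoporins NUP153, NUP155 and NUP205 had 26, 22 and 21. In the exportins and nucleoporins the CDS led, with 26 of 32 clusters in XPO1 and 16 of 22 in NUP155, while in KPNA4 and TNPO1 the 3'UTR led with 23 of 34 and 20 of 26. Cohesin and condensin genes gave 4 of 21 (19.05%), with SMC4 at 45 clusters, 33 of them in the CDS, the cohesin release factor WAPAL at 35, STAG2 at 32 and RAD21 at 22. Histone lysine methyltransferases and demethylases gave 7 of 37 (18.9%). After KMT2D these were NSD1 with 44, WHSC1L1 with 36, SETD5 with 30, WHSC1 with 27 and ASH1L and SETD7 with 23 each. All 7 also held an FH-DHX36 cluster, as did 89.2% of the 37, against 62.1% of all 9131. The share was 74.0% of the 50 nuclear transport genes and 61.9% of the 21 cohesin and condensin genes. The median number of FH-DHX36 clusters was 1 in both of these lists, as over the other genes, and 3 over the 37. Median lengths over the 50, 21 and 37 genes were 5218, 5928 and 6256 bases, against 3447.5 over the other genes.

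Smaller shares came from cyclins and their kinases, 4 of 39 (10.3%), among them CCND2 with 47 clusters and CDK6 with 34, and from phosphatase subunits, 5 of 49 (10.2%), PPP1R15B, PPP4R2, PPP2R2A, PPP1CB and PPP2CA. Factors of mRNA decay gave 4 of 45 (8.89%). They were the deadenylase CNOT6 with 31 clusters, the decapping enzyme DCP2 with 28, CNOT1 with 26 and TNRC6B with 21, and together they had 106 FH-DHX36-E335A and 12 FH-DHX36 clusters. The MAP kinase cascade gave 3 of 38, among them NRAS with 26 clusters, 21 of them in the 3'UTR. NRAS, whose mRNA is a textbook case of a G-quadruplex in the 5'UTR, had 8804 and 6505 reads and a log2 ratio of -1.58. The 21 clusters in the 3'UTR lie outside that structure. Without cluster positions, no other cluster of NRAS can be placed on it. Translation factors gave 4 of 52, which were ETF1 and all 3 EIF4G genes. EIF4G1, EIF4G2 and EIF4G3 had 30, 29 and 22 clusters. EIF4G2 had 20 of them in the CDS, and EIF4G1 and EIF4G3 had 10 each in introns.

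Several large families stood near the background. Zinc finger genes named ZNF gave 18 of 328 (5.49%), led by ZNF644 with 34 clusters and ZNF507 and ZNF678 with 32 each. Of these 18, ZNF703 had 21 FH-DHX36 clusters against 22 with FH-DHX36-E335A. Ubiquitin ligases and conjugating enzymes gave 7 of 182 (3.85%), with UBE2K at 36 clusters, and solute carriers 4 of 134 (2.99%), with the amino acid transporter SLC38A1 at 37. FAM208B, FAM53C and FAM20B were 3 of 130 (2.31%). Somewhat above the background, ZBTB21 (43 clusters), ZBTB10 and ZBTB18 were 3 of 39 (7.69%), and KIF2A, KIF5B and DYNC1LI2 3 of 41 (7.32%). No multi-cluster gene came from the 70 cytosolic ribosomal protein genes, the 86 of the respiratory chain, the 40 of the proteasome or the 29 HOX genes with an FH-DHX36-E335A cluster. The median transcripts of these 4 lists were 957.5, 894, 1529 and 2002 bases in the same order, against 3447.5 over the other genes. An FH-DHX36 cluster was held by 85.7%, 62.8%, 82.5% and 69.0% of their genes, against 62.1% of all 9131. The remaining 18 lists gave 0 to 2 genes each, and the list of mitochondrially encoded genes had no gene in the table. Their highest shares were 2 of 13 SOX and POU genes (15.4%) and 2 of 18 SMAD and TGF-beta receptor genes (11.1%), and their lowest were 0.

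**Figure D5:**
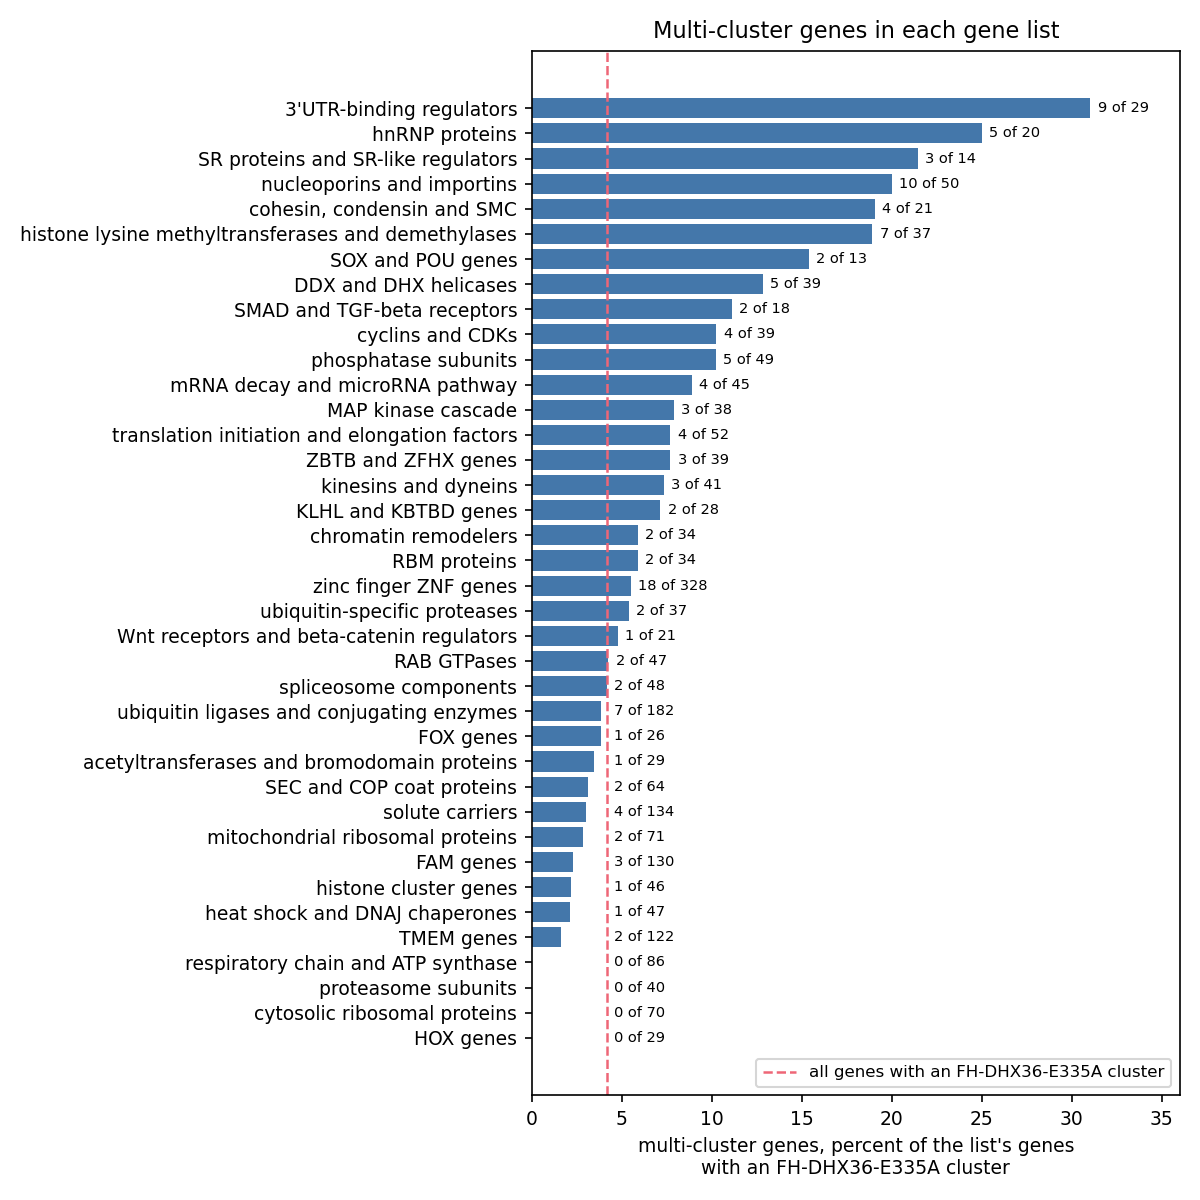
Multi-cluster genes as percent of the genes of each list that have an FH-DHX36-E335A cluster (horizontal axis), for lists with at least 10 such genes, with the numbers beside each bar and a dashed line at 4.17%, the share over all genes with an FH-DHX36-E335A cluster. Regulators that bind 3'UTRs are highest at 9 of 29, and cytosolic ribosomal protein, respiratory chain, proteasome and HOX genes are at 0.

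Names that share a stem, grouped after the values were seen, showed a few families with several multi-cluster members. These were picked from the upper end, and each is counted out of the genes of the stem with an FH-DHX36-E335A cluster. All 3 EIF4G genes were multi-cluster genes. So were 2 of 3 MDM genes (the p53 regulators MDM2 and MDM4), 2 of 3 HIPK genes and 3 of 6 LARP genes (LARP1, LARP4 and LARP4B). The share over all 9131 genes was 4.17%. Larger stems stood near or below it, such as WDR with 2 of 42 (4.76%) and TMEM with 2 of 122 (1.64%).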

How the data were processed

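PAR-CLIP was performed in 2 HEK293 lines, one with FH-DHX36 and one with FH-DHX36-E335A, with 2 samples from each. Reads were demultiplexed with bcl2fastq 2.17.1 (per the submitters' processing notes) and mapped to hg19 by the authors, with PARalyzer in PARpipe used to call clusters and GENCODE v19 to categorize them. The authors deposited counts of clusters and of crosslinked reads per gene and annotation, and NXPM, a score of reads scaled to 1000000 and divided by mRNA abundance. Each column holds 1 value per line, and the study describes sites found reproducibly in its replicates, but how the samples were combined for this table is not given in the sources used here.

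Genes with more than 20 FH-DHX36-E335A clusters were kept unless 95% or more of their crosslinked reads lay in the 3'UTR. The genes, lists and measures were chosen with earlier results of these data known. Named genes were the extremes of clusters (10), reads (10), FH-DHX36 clusters (8), ratio (6 at each end), region share (4 per region) and density (4 at each end), all genes without an FH-DHX36 cluster, and those of lists with at least 3. NRAS and the stem families were picked after their values were seen, as were other single examples. A few genes that this rule names are not reported here. Abundance was recovered as scaled reads over NXPM less 0.001. Both NXPM values gave the same abundance, within 1%, for all 5646 genes compared. Of the 381 genes, 380 matched GENCODE release 44 on GRCh37, 14 of them through older names. The steps were tested on simulated data and run in Python 3.11.15 with pandas 2.3.3.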

Additional observations from a re-analysis of the deposited data

How the results depend on the processing

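No paired analysis was possible because the table holds 1 value per cell line and no replicate columns, and leaving out a replicate was not run for the same reason. Family counts, leading annotations, GC groups and correlations were not recomputed. Genes over 15, 25 and 30 clusters numbered 769, 194 and 99, of which 726, 191 and 97 held an FH-DHX36 cluster. By reads, the FH-DHX36-E335A shares were 4.13% in the 5'UTR, 17.7% in the CDS, 56.6% in the 3'UTR and 7.12% in introns, and the FH-DHX36 shares were 36.35% in the 3'UTR and 28.4% in the CDS. Over 15 clusters, the FH-DHX36-E335A shares were 51.0% in the 3'UTR and 30.03% in the CDS. Over 25 clusters, the 3'UTR held 53.8%. Over 30, they were 2.57% in the 5'UTR, 29.7% in the CDS, 54.3% in the 3'UTR and 7.26% in introns. With no gene left out for its 3'UTR reads, they were 54.5% in the 3'UTR and 27.7% in the CDS, and the FH-DHX36 share was 48.5% in the 3'UTR. The median ratio was 1.73 with at least 100 FH-DHX36 reads. With runs of 3 guanines the median density of G-run matches was 0. All other alternatives stayed within the intervals or within 1.5 times the count. The FH-DHX36 PAR-CLIP is the shallower, which limits its values, and without replicate values the spread between samples is unknown.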
